A study of Mus musculus with 18 samples.

Results

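Cytochrome P450 family 2 is a large group of drug- and steroid-oxidizing enzymes in mouse liver, and its RNA was followed here across the 6 groups of a hepatocyte experiment. Members were the rows of the deposited table whose gene name is Cyp2, then 1 letter for the subfamily, then a number. This rule found 43 genes among 16873. They comprised 4 Cyp2a, 4 Cyp2b, 14 Cyp2c, 9 Cyp2d and 5 Cyp2j genes, and 1 gene each of Cyp2e, Cyp2f, Cyp2g, Cyp2r, Cyp2s, Cyp2t and Cyp2u. Of the 43, 39 reached 10 normalized units in 3 or more libraries and were tested, and the other 4 (Cyp2c65, Cyp2d34, Cyp2j8 and Cyp2t4) were near 0.

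Hepatocytes were taken from mice that lack Mtdh (Mtdh KO) and from wild-type (WT) mice of matched age, with the label that the livers were normal and without tumor. They were exposed to TNFa, to TGFb or to conditioned medium (CM) of Kupffer cells, the resident macrophages of the liver, which had received EVPs of Py8119, a mouse mammary tumor cell line. The groups were TNFa KO and TNFa WT, TGFb KO and TGFb WT, and CM KO and CM WT, with 3 libraries each and 18 in all. There was no untreated group, so each treatment could be set only against another. The sources used here do not name the strain, sex, age in weeks, doses or times, or which exons of Mtdh the KO lacks. The design text calls the 3 libraries of a group biological replicates. It does not say whether they came from separate mice, so the p-values measure the spread between libraries.

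P450 enzymes are heme proteins of the endoplasmic reticulum that insert 1 oxygen atom into a substrate with electrons passed on by P450 reductase. Family 2 enzymes clear drugs, carcinogens, steroids, bile acids and fatty acids, and many are made almost wholly by hepatocytes. Several mouse subfamilies expanded by tandem duplication, and some copies are made mainly in the liver of 1 sex under control of growth hormone. Inflammatory cytokines are known to lower many hepatic P450 RNAs.

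The Cyp2a, Cyp2b, Cyp2f, Cyp2g, Cyp2s and Cyp2t members lie together on chromosome 7, between 25501900 and 26858094 on mm39 as listed in the table, with Cyp2r1 and Cyp2e1 farther along the same chromosome. The Cyp2c members are on chromosome 19 (38995463 to 44017648), the Cyp2d members on chromosome 15 (82254728 to 82678496), the Cyp2j members on chromosome 4 (95915771 to 96552392) and Cyp2u1 on chromosome 3. Mtdh is also on chromosome 15, at 34082840 to 34145771. Coding sequences of 42 members were found in GENCODE M21 (GRCm38), where Cyp2d13 had none. Cyp2a4 and Cyp2a5 were the most alike, with 98.45% identity and 23 mismatches over 1482 coding bases. Cyp2c67 and Cyp2c69 were 97.69% identical, Cyp2a12 and Cyp2a22 96.95%, Cyp2c37 and Cyp2c50 96.12% and Cyp2b9 and Cyp2b13 92.74%. Of all windows of 100 bases in the coding sequence, 50.6% in Cyp2c40, 40.8% in Cyp2c69, 19.9% in Cyp2a5 and 13.2% in Cyp2a4 were also found, letter for letter, in a transcript of another gene. The share was 16.3% in Cyp2d10 and 12.9% in Cyp2d11, 11.3% in Cyp2d9, most of all with the more abundant Cyp2d10, 11.6% in Cyp2c50, most of all with Cyp2c54, and 11.5% in Cyp2b13, most of all with Gm45225. For Cyp2e1, Cyp2c29, Cyp2c70, Cyp2j5 and Cyp2f2 this share was 0%. The sources used here do not say how reads that match several genes were counted, so the split of reads between close copies is uncertain. This holds for Cyp2a4 with Cyp2a5, for Cyp2a12 with Cyp2a22, and for Cyp2c40, Cyp2c67, Cyp2c68 and Cyp2c69. It holds also for Cyp2b13, Cyp2d9, Cyp2d10, Cyp2c37, Cyp2c50 and Cyp2c54. The share of windows of 100 bases was 7.84% in each of Cyp2a12 and Cyp2a22, 9.34% in Cyp2c54 and 5.76% in Cyp2c37. With windows of 50 bases it was 30.1% in each of Cyp2a12 and Cyp2a22, 26.9% in Cyp2c54 and 32.2% in Cyp2c37.

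Cyp2a5 and Cyp2a4 are close copies that moved in opposite directions in the KO libraries with TNFa and TGFb. Their stretch of 150 coding bases with the most mismatches is therefore shown. It covers coding bases 592 to 741 of both genes and holds 7 mismatches, which are the capitals.
Cyp2a5: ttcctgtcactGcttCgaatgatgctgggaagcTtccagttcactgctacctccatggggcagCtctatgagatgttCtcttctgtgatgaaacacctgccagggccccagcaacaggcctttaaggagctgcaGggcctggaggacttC
Cyp2a4: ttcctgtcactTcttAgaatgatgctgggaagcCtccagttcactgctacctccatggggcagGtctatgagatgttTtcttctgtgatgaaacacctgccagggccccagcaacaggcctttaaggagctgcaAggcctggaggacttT

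The corresponding stretch of Cyp2c69 and Cyp2c40, the other members that fell, starts at coding base 1025 of Cyp2c69 and 1112 of Cyp2c40. Capitals mark its 9 mismatches.
Cyp2c69: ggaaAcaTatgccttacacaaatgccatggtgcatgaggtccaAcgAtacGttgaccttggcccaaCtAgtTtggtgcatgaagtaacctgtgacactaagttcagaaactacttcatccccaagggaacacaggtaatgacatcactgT
Cyp2c40: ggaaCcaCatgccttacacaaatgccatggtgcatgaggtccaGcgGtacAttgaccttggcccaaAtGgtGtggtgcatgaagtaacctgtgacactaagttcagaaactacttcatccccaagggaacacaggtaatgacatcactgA

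The 250 bases before the start sites of Cyp2b13 and Cyp2b9, from RefSeq on GRCm38.p6, differ at only 2 positions (capitals), and both genes rose in the KO libraries. They lie on the plus strand at chr7:26061245-26061494 for Cyp2b13 and chr7:26173159-26173408 for Cyp2b9.
Cyp2b13: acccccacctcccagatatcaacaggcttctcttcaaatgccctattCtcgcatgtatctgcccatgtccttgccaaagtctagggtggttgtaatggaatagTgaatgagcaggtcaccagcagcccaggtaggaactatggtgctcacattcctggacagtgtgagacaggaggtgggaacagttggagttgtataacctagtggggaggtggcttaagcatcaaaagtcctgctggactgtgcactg
Cyp2b9: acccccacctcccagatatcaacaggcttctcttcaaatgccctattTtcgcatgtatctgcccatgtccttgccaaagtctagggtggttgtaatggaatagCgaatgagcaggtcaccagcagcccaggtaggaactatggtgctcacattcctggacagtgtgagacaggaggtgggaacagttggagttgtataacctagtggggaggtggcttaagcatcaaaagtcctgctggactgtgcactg

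The same window of Cyp2a5 and Cyp2a4, at chr7:26835089-26835338 and chr7:26306942-26307191 on the plus strand, has 4 mismatches and 1 unpaired base at an end of each (capitals), and both hold the letters TATAAA close to the start site.
Cyp2a5: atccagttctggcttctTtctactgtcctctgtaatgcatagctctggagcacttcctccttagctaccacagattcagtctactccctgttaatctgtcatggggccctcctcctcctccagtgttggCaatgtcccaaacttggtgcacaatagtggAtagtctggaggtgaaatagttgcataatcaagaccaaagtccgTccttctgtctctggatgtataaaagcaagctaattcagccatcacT
Cyp2a4: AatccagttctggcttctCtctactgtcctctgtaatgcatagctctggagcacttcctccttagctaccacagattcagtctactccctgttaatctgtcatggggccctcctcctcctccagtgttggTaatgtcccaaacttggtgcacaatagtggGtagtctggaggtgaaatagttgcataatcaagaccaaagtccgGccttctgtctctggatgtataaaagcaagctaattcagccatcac

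RefSeq start-site windows of 250 bases before and 50 after the start were found for 35 of the 43 members. TATAAA, the core of a TATA box, occurred on either strand in 19 of these 35 (54.3%) and in 13.6% of the 32851 windows of all genes. CAAAGTCCA, a sequence HNF4A is known to bind, occurred in 6 members (17.1%) and in 0.475% of all windows. The 6 were Cyp2c40, Cyp2c65, Cyp2c67, Cyp2c68, Cyp2c69 and Cyp2c70, all on chromosome 19. Of these, Cyp2c40, Cyp2c67, Cyp2c68 and Cyp2c69 are close copies, with coding sequences 92.24% to 97.69% identical. The 6 are thus not independent occurrences, and none lies outside Cyp2c. TTCNNNGAA, the STAT5 type of site, was in 0 of 35 member windows and in 8.3% of all windows.

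Mtdh had a normalized value of 581 to 973 in the 9 KO libraries, against 10063 to 13725 in the 9 WT libraries. The estimated depth was 19429199 to 35618749 reads per library. Albumin, the main protein made by hepatocytes, took 6.11 ± 0.24% of the library in TNFa KO and 6.20 ± 0.05% in TNFa WT, 10.1 ± 0.31% in TGFb KO and 7.71 ± 0.25% in TGFb WT, and 8.67 ± 0.08% in CM KO and 6.88 ± 0.07% in CM WT (mean ± SD, n = 3). Markers of other liver cells were present. All 12 Kupffer cell markers were read, and their summed value was 6325 to 7292 in TNFa KO against 3402 to 4057 in TNFa WT, 4935 to 5989 in TGFb KO against 2774 to 3316 in TGFb WT, and 4825 to 5049 in CM KO against 2337 to 2869 in CM WT. Relative to WT, 7 of the 12 rose in TNFa KO, 9 in TGFb KO and 8 in CM KO, and none fell. Timd4 was at 0 in all TGFb WT libraries. Of 10 sinusoidal endothelial markers 3, 1 and 1 rose, of 7 tested stellate cell markers 0, 1 and 1 rose, and of 8 cholangiocyte markers 2, 1 and 0 fell. The shares of all tested genes that rose in KO were 4.19% with TNFa, 7.25% with TGFb and 5.62% with CM. The shares that fell were 3.7%, 4.95% and 3.77%. Lymphocyte and neutrophil markers summed to at most 131 in any library. The part of these other cells in the Cyp2 differences was not tested. In bulk RNA of this kind, fewer hepatocytes and less RNA per hepatocyte cannot be told apart.

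Per kilobase of coding sequence, Cyp2e1, which oxidizes ethanol and acetaminophen, had the highest level of the family in every group, from 43801 normalized units per kilobase in TNFa WT to 103567 in TGFb KO. Averaged over the 18 libraries, Cyp2e1 stood at 69281 units per kilobase. Next on that scale came Cyp2c29 (17978), Cyp2a5 (10108), Cyp2c70 (8325), Cyp2c50 (7856) and Cyp2d10 (6537). Summed over the 43 members, the family took 0.853 ± 0.019% of the library in TNFa KO against 0.758 ± 0.014% in TNFa WT. It took 1.39 ± 0.018% in TGFb KO against 1.11 ± 0.016% in TGFb WT, and 1.2 ± 0.0066% in CM KO against 0.958 ± 0.023% in CM WT (mean ± SD, n = 3). In normalized units the family sum was 1.10, 1.34 and 1.32 times the WT mean in TNFa, TGFb and CM KO libraries, and KO and WT libraries did not overlap under any treatment. Cyp2e1 alone made up 37.0% to 45.4% of that sum by group. The 11 tested hepatocyte markers, albumin among them, had a mean sum of 1691990 in TNFa KO and 1754300 in TNFa WT. Their mean sum was 3256170 in TGFb KO and 2367100 in TGFb WT, and 2638830 in CM KO and 2076530 in CM WT. The part of a general change of hepatocyte RNA in the KO difference of the family was not tested. Among the subfamilies of several genes, the Cyp2b sum had the widest KO difference, at 1.4, 2.18 and 1.93 times WT. The Cyp2d sum overlapped between KO and WT with TNFa, at 1.01 times WT. Without its most abundant member, the TNFa ratio dropped below 1 for Cyp2a (0.863, without Cyp2a5), Cyp2c (0.967, without Cyp2c29), Cyp2d (0.96, without Cyp2d10) and Cyp2j (0.903, without Cyp2j5).

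**Figure D1:**
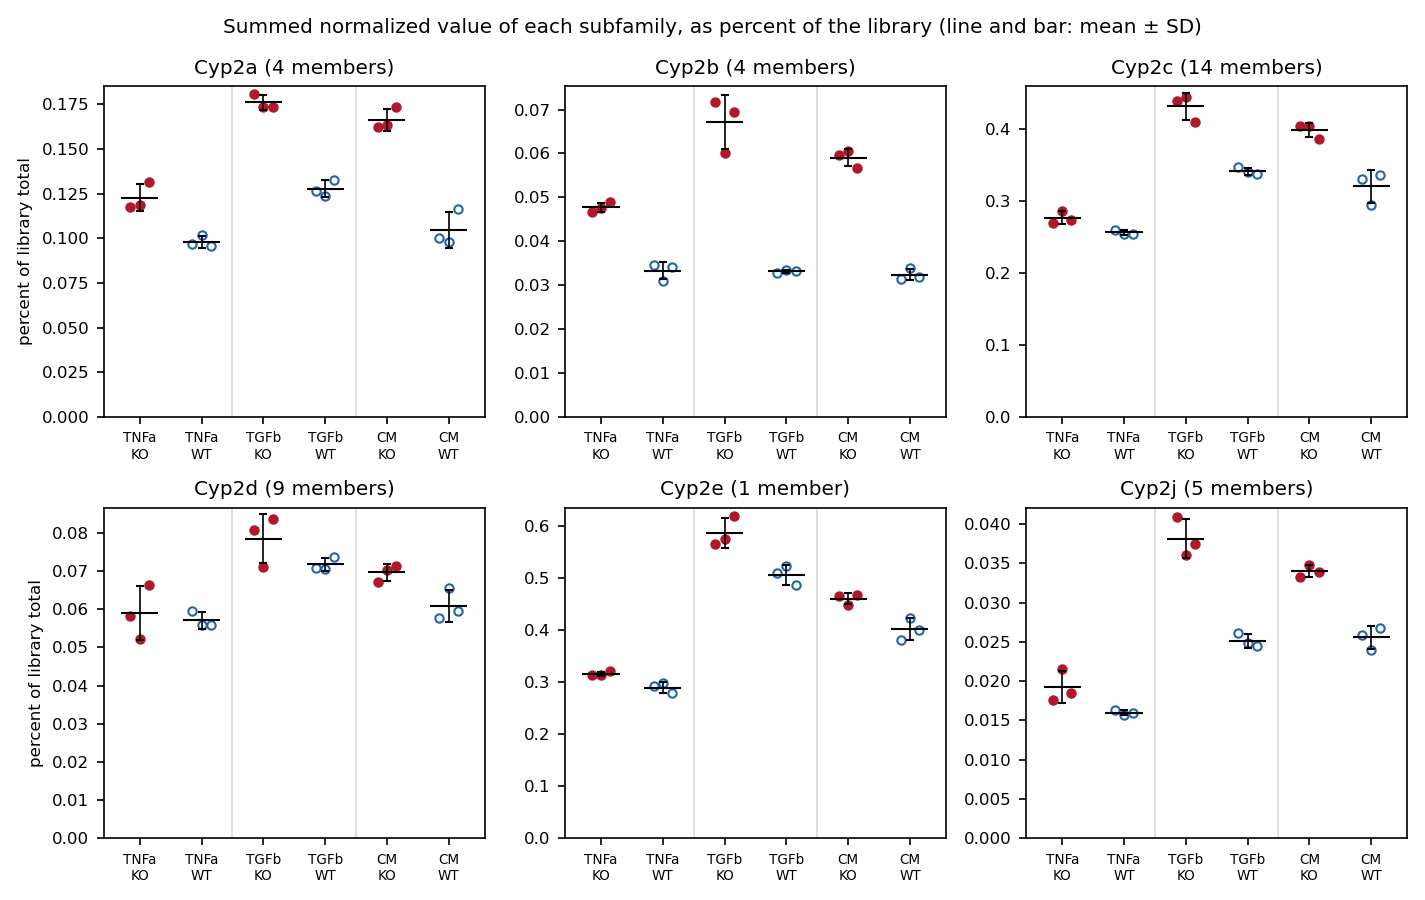
Summed normalized value of the 6 most abundant subfamilies as percent of the library total (y axis, from 0) in the 18 libraries by group (x axis; filled points KO, open points WT, line and bar mean ± SD, n = 3). Cyp2b has KO libraries far above WT under each treatment (0.0671 ± 0.0062% in TGFb KO against 0.0331 ± 0.00037% in TGFb WT), and TNFa libraries are lowest for Cyp2c, Cyp2e and Cyp2j.

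Mtdh KO hepatocytes had more RNA of many Cyp2 genes than WT hepatocytes under each treatment. With TNFa, 12 of the 39 tested members rose and 3 fell, with TGFb 20 rose and 2 fell, and with CM 15 rose and 1 fell. In each case a change means an adjusted p below 0.05 in limma over all 14455 tested genes, of which 4.19% were higher and 3.7% lower in KO with TNFa, 7.25% and 4.95% with TGFb, and 5.62% and 3.77% with CM. The members' shares were 30.8% higher and 7.69% lower with TNFa, 51.3% and 5.13% with TGFb, and 38.5% and 2.56% with CM. The median log2 fold change of the 39 members was 0.28 under TNFa, 0.65 under TGFb and 0.41 under CM, against 0.02, -0.01 and -0.01 for all genes. Averaged over treatments, 23 members rose and 3 fell, against 11.2% and 9.53% of all genes, with a member median of 0.51. Over all 43 members, the KO libraries lay above the WT libraries without overlap for 14 (32.6%) under TNFa and for 25 (58.1%) each under TGFb and CM, against 11.7%, 12.1% and 11.5% of all 16873 genes. They lay below them for 4 (9.3%) under TNFa, 3 (6.98%) under TGFb and 1 (2.33%) under CM, against 10%, 11.1% and 11.2% of all genes. The direction was not uniform. As many as 11 members rose under all 3 treatments, namely Cyp2a5, Cyp2a22, Cyp2b9, Cyp2b13, Cyp2c29, Cyp2c37, Cyp2c38, Cyp2c50, Cyp2c54, Cyp2d9 and Cyp2j5. They are 28.2% of the tested members, against 1.93% of all tested genes. For Cyp2c29, Cyp2c37 and Cyp2j5 the TNFa call did not hold in limma without a trend (adjusted p = 0.0941, 0.0984 and 0.101). These calls were also lost in subsets that lacked 1 library, as given below. Cyp2a12, Cyp2b10, Cyp2c70 and Cyp2f2 rose under 2 treatments, and Cyp2b23, Cyp2c67, Cyp2d10, Cyp2d13, Cyp2d22 and Cyp2e1 under 1. Cyp2c69 fell under all 3 (2.56% of the tested members, against 0.892% of all tested genes), Cyp2a4 under 2 and Cyp2c40 under 1. The other 15 tested members were called under no treatment. Of the markers of hepatocytes themselves, 11 were tested, and 3 rose and 2 fell with TNFa, 5 rose with TGFb and 4 with CM. Kupffer cell markers were higher in KO under each treatment, as given before.

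**Figure D2:**
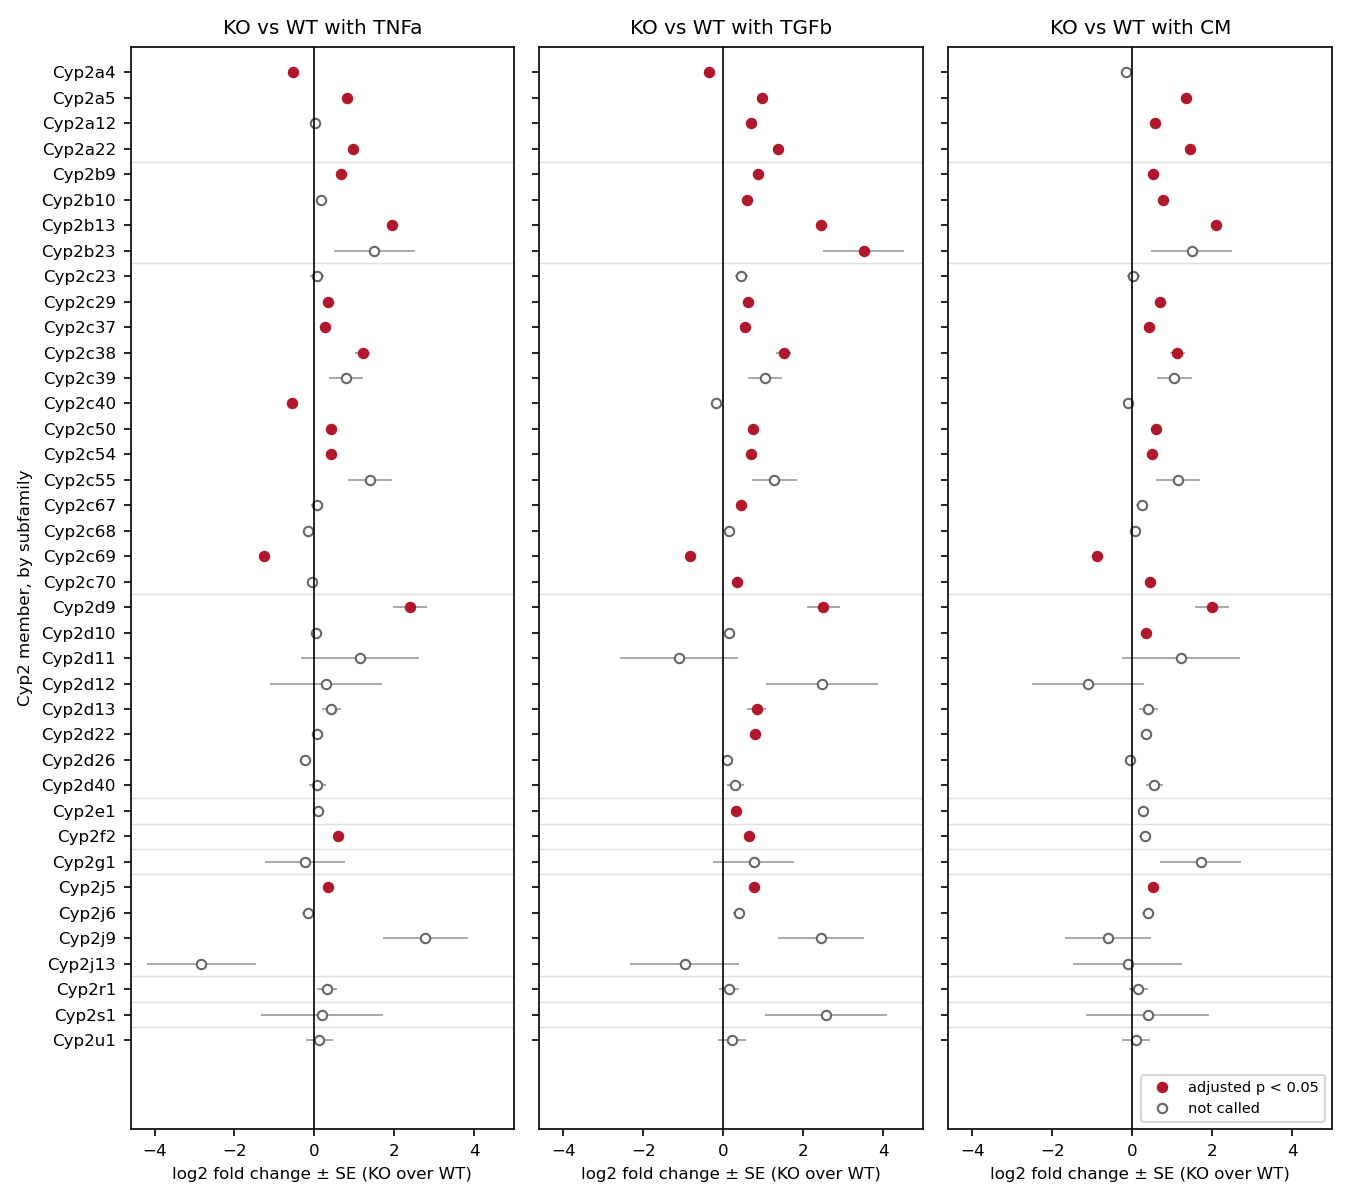
Log2 fold change of KO over WT with its standard error (x axis) for the 39 tested members in subfamily order (y axis), with 1 panel per treatment; filled points have an adjusted p below 0.05. Cyp2b13 (1.94 to 2.45) and Cyp2d9 (1.998 to 2.51) lie far to the right in every panel, Cyp2c69 (-1.25 to -0.83) lies to the left in every panel, and Cyp2a4 and Cyp2a5 fall on opposite sides of 0.

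Among the Cyp2a genes, Cyp2a5 and Cyp2a22 rose in KO under each treatment while Cyp2a4 fell with TNFa and TGFb. Cyp2a5 is the coumarin 7-hydroxylase and nicotine oxidase of mouse liver. With TNFa, Cyp2a5 had a normalized value of 14838, 14779.7 and 16742 in KO libraries, against 8529.8, 9114 and 8495 in WT libraries. With TGFb, Cyp2a5 stood at 24264, 23492 and 22399 in KO libraries, against 11728, 11948 and 11932 in WT libraries. With CM, Cyp2a5 reached 21051, 21974 and 22473 in KO libraries, against 8159.8, 7765 and 9952 in WT libraries. All 9 KO libraries lay above all 9 WT libraries, whatever the treatment. Cyp2a5 had a log2 fold change (± SE, in limma) of 0.82 ± 0.09 with TNFa, 0.98 ± 0.09 with TGFb and 1.35 ± 0.09 with CM (adjusted p = 6.45e-08, 9.01e-10 and 3e-12).

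Cyp2a4, the steroid 15-alpha-hydroxylase that is made mainly in female liver, went the other way. With TNFa, Cyp2a4 had a normalized value of 5071, 5568 and 5708 in KO libraries, against 7829, 7951 and 7781 in WT libraries. With TGFb, Cyp2a4 measured 8358, 9606 and 7719 in KO libraries, against 11030.1, 10604 and 11218 in WT libraries. With CM, Cyp2a4 came to 8116, 7886 and 8465 in KO libraries, against 8966, 8104 and 10472 in WT libraries. KO libraries were below WT without overlap with TNFa and TGFb, and the groups overlapped with CM. The log2 fold change of Cyp2a4 was -0.53 ± 0.09 with TNFa, -0.36 ± 0.09 with TGFb and -0.16 ± 0.09 with CM (adjusted p = 0.000184, 0.00648 and 0.317), so the CM value did not pass. Its call with TGFb did not hold in every subset, at -0.29 without TGFb KO replicate 3 (adjusted p = 0.0628). Because these genes share sequence, their sum and ratio are given too. Cyp2a4 and Cyp2a5 together reached 20902 ± 1358 in TNFa KO against 16567 ± 434 in TNFa WT (mean ± SD, n = 3). Their sum was 31946 ± 1601 in TGFb KO against 22820 ± 304 in TGFb WT. It was 29988 ± 892 in CM KO against 17806 ± 2352 in CM WT. The ratio of Cyp2a5 to Cyp2a4 was 2.45 to 2.93 in the 9 KO libraries, against 0.91 to 1.15 in the 9 WT libraries.

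Cyp2a22, a close relative of Cyp2a12, rose in every treatment. With TNFa, Cyp2a22 had a normalized value of 1071, 1102 and 1385 in KO libraries, against 632, 553 and 632 in WT libraries. With TGFb, Cyp2a22 was 2629.8, 2206 and 2863 in KO libraries, against 915, 1063 and 999.9 in WT libraries. With CM, Cyp2a22 was 2328, 2141 and 2069 in KO libraries, against 882, 781 and 753 in WT libraries. The KO and WT libraries of a treatment did not overlap. The part of reads shared with the more abundant Cyp2a12 in these values was not tested. Cyp2a22 had a log2 fold change of 0.96 ± 0.12 with TNFa, 1.36 ± 0.12 with TGFb and 1.44 ± 0.12 with CM (adjusted p = 2.28e-06, 1.39e-09 and 1.04e-09). Cyp2a12, a steroid and bile acid hydroxylase, differed between genotypes with TGFb and CM. With TNFa, Cyp2a12 had a normalized value of 4797, 4842 and 4672 in KO libraries, against 4880.0, 4359.9 and 5037 in WT libraries. With TGFb, Cyp2a12 amounted to 12559, 10273 and 11689 in KO libraries, against 6968, 6477 and 8029 in WT libraries. With CM, Cyp2a12 was at 8331, 8651 and 8129 in KO libraries, against 5464, 5355 and 6001 in WT libraries. Under TNFa the genotypes overlapped, and under the other treatments all KO libraries were higher. The log2 fold change of Cyp2a12 was 0.01 ± 0.09 with TNFa, 0.69 ± 0.09 with TGFb and 0.58 ± 0.09 with CM (adjusted p = 0.982, 1.61e-06 and 4.14e-05).

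**Figure D3:**
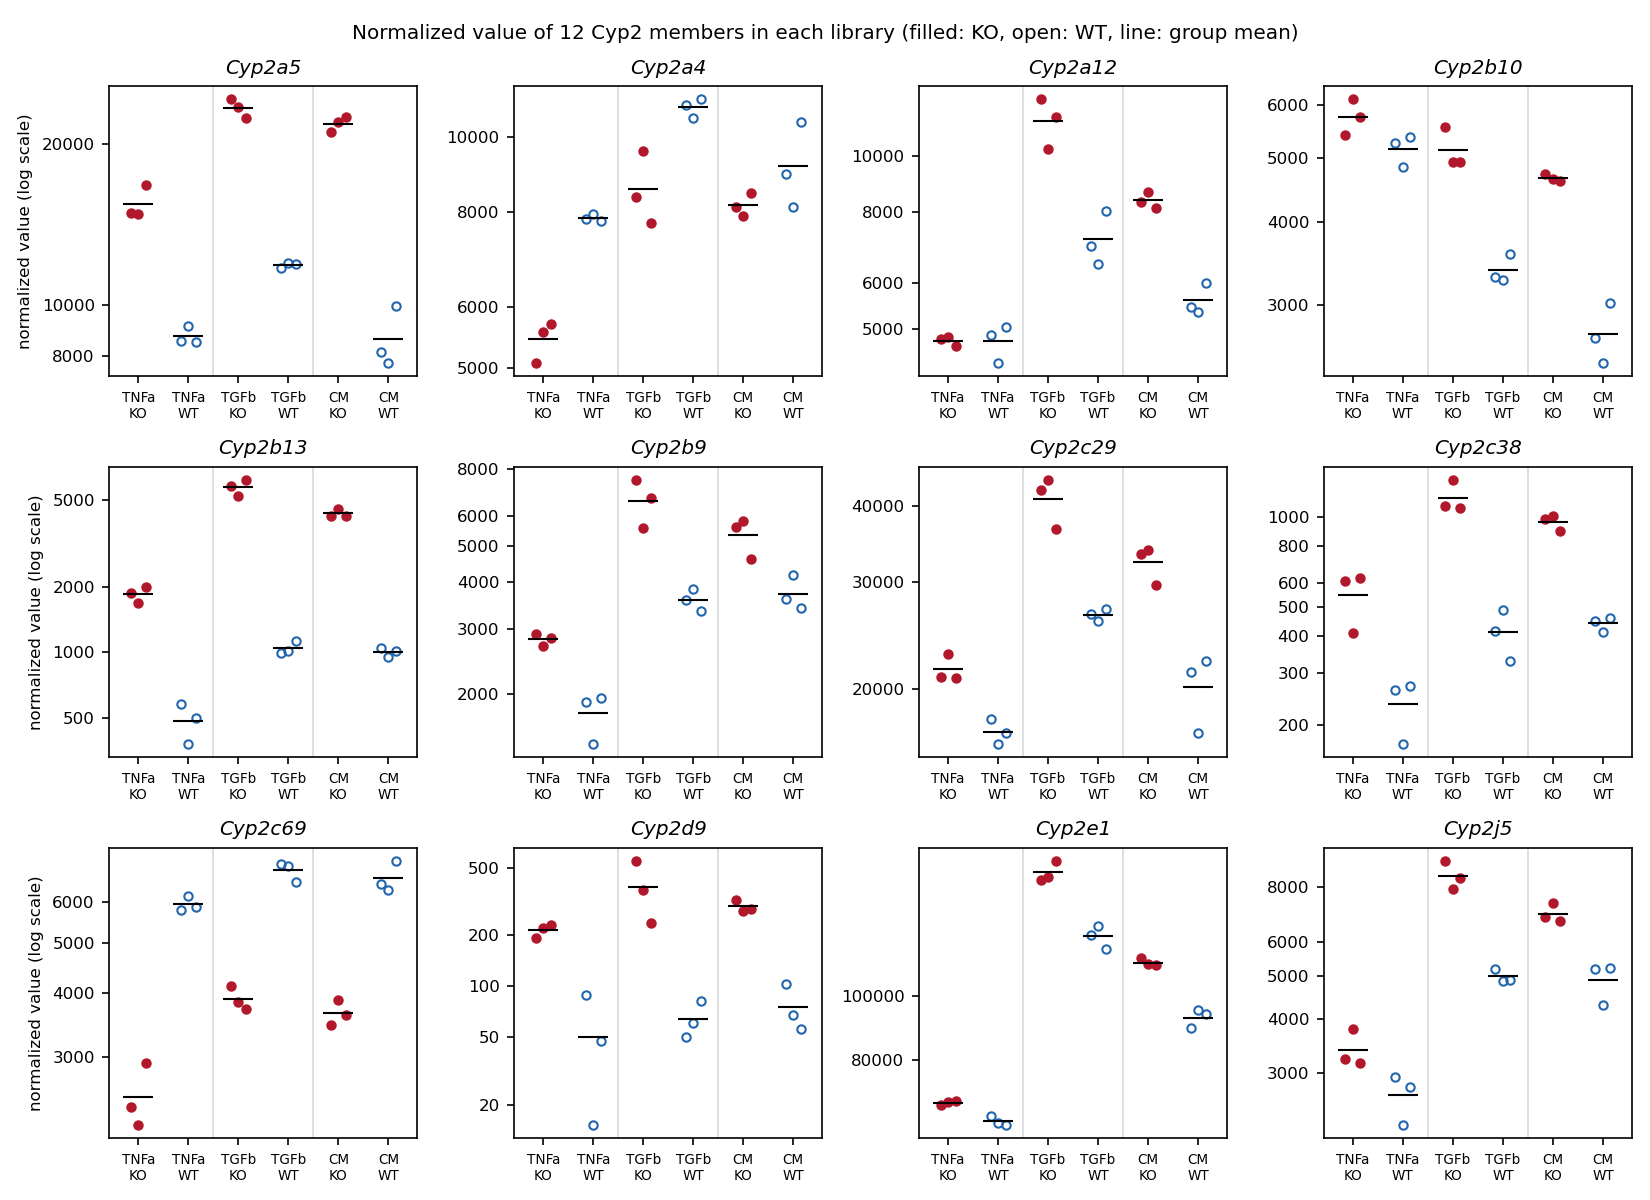
Normalized value on a log scale (y axis) of 12 members in each of the 18 libraries by group (x axis; filled points KO, open points WT, line the group mean). Cyp2a5, Cyp2b13 and Cyp2d9 are higher and Cyp2c69 is lower in every KO library than in every WT library of the same treatment, and Cyp2b10 is the one plotted member that is highest with TNFa in both genotypes.

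The Cyp2b genes, which act on drugs and steroids, had more RNA in KO: Cyp2b9 and Cyp2b13 rose under each treatment and Cyp2b10 with TGFb and CM. Cyp2b13, made mainly in female liver, had the widest rise among members with a value above 1000. With TNFa, Cyp2b13 had a normalized value of 1868, 1674 and 1982 in KO libraries, against 576, 379 and 498 in WT libraries. With TGFb, Cyp2b13 was 5795, 5214 and 6146 in KO libraries, against 989, 1017 and 1123 in WT libraries. With CM, Cyp2b13 rested at 4214, 4556 and 4214 in KO libraries, against 1047, 950.0 and 1016 in WT libraries. Even the lowest KO library exceeded all WT libraries of the series. Cyp2b13 had a log2 fold change of 1.94 ± 0.12 with TNFa, 2.45 ± 0.12 with TGFb and 2.11 ± 0.12 with CM (adjusted p = 1.91e-12, 5.65e-15 and 2.23e-13). Cyp2b13 shares 11.5% of its windows with other genes, and the part of reads from Gm45225 in these values was not tested. Cyp2b9, also a female-biased gene, rose by less. With TNFa, Cyp2b9 had a normalized value of 2907, 2688 and 2826 in KO libraries, against 1912, 1473 and 1962 in WT libraries. With TGFb, Cyp2b9 ran at 7484, 5567 and 6726 in KO libraries, against 3582, 3822 and 3337 in WT libraries. With CM, Cyp2b9 lay at 5598, 5806 and 4618 in KO libraries, against 3597, 4177 and 3399 in WT libraries. KO exceeded WT without overlap in each treatment. For Cyp2b9 the log2 fold change was 0.67 ± 0.12 with TNFa, 0.87 ± 0.12 with TGFb and 0.52 ± 0.12 with CM (adjusted p = 0.000217, 1.76e-06 and 0.00287). The ratio of Cyp2b13 to Cyp2b9 was 0.623 to 0.936 in KO libraries, against 0.227 to 0.337 in WT libraries.

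Cyp2b10 is the main target of the xenobiotic receptor CAR in mouse liver. With TNFa, Cyp2b10 had a normalized value of 5397, 6116 and 5753 in KO libraries, against 5256, 4843 and 5371 in WT libraries. With TGFb, Cyp2b10 held 5553, 4921 and 4927 in KO libraries, against 3312, 3279 and 3587 in WT libraries. With CM, Cyp2b10 was 4717, 4640.2 and 4617 in KO libraries, against 2682, 2457 and 3024 in WT libraries. The genotypes did not overlap in any treatment, but with TNFa they differed little. Cyp2b10 had a log2 fold change of 0.16 ± 0.09 with TNFa, 0.60 ± 0.09 with TGFb and 0.78 ± 0.09 with CM (adjusted p = 0.323, 9.86e-06 and 2.3e-07). Cyp2b23, a scarce member, had 121, 58.9 and 74.2 in TGFb KO libraries, against 27.6, 4.77 and 1.25 in TGFb WT libraries, and rose there with a log2 fold change of 3.51 ± 1.01 (adjusted p = 0.0184). That call did not hold in 3 subsets that lacked 1 library, at 2.67 to 3.35 (adjusted p = 0.0611 to 0.136), without 1 of TGFb KO replicate 1, TGFb WT replicate 2 or TGFb WT replicate 3. Without the filter on low values its adjusted p was 0.083.

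In the Cyp2c subfamily, which oxidizes arachidonic acid, retinoids and many drugs, 5 of 13 tested genes rose under every treatment. Cyp2c29, the most abundant of them per length, epoxidizes fatty acids. With TNFa, Cyp2c29 had a normalized value of 20926, 22830.5 and 20856 in KO libraries, against 17867, 16239 and 16939.7 in WT libraries. With TGFb, Cyp2c29 was 42517, 44078 and 36589 in KO libraries, against 26543, 25846 and 27058 in WT libraries. With CM, Cyp2c29 was 33344, 33911 and 29668 in KO libraries, against 21340.3, 16911 and 22238 in WT libraries. KO and WT libraries were apart in all 3 treatments. The log2 fold change was 0.34 ± 0.10 with TNFa, 0.63 ± 0.10 with TGFb and 0.69 ± 0.10 with CM (adjusted p = 0.024, 1.68e-05 and 8.1e-06). With TNFa, the call of Cyp2c29 did not hold in 4 of 6 subsets that lacked 1 library, at 0.30 to 0.36 (adjusted p = 0.0516 to 0.109), without 1 of TNFa KO replicate 1, TNFa KO replicate 2, TNFa WT replicate 2 or TNFa WT replicate 3. Without the filter on low values its adjusted p was 0.0534.

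Cyp2c38, a female-biased member, had the widest rise of the subfamily among called genes. With TNFa, Cyp2c38 had a normalized value of 610.1, 408 and 625 in KO libraries, against 263, 173 and 272 in WT libraries. With TGFb, Cyp2c38 gave 1091, 1332 and 1072 in KO libraries, against 417, 488 and 328 in WT libraries. With CM, Cyp2c38 gave 984, 1009.6 and 901 in KO libraries, against 449, 411 and 461 in WT libraries. The genotypes did not overlap, although the lowest TNFa KO library stood apart from the other 2 TNFa KO libraries. Cyp2c38 had a log2 fold change of 1.21 ± 0.19 with TNFa, 1.51 ± 0.19 with TGFb and 1.13 ± 0.19 with CM (adjusted p = 4.35e-05, 5.61e-07 and 9.33e-05).

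Cyp2c37, Cyp2c50 and Cyp2c54 are adjacent copies that act on arachidonic acid. With TNFa, Cyp2c50 had a normalized value of 8336, 9130.5 and 8729 in KO libraries, against 7319.8, 5698 and 6799 in WT libraries. With TGFb, Cyp2c50 was 20024, 18684 and 17275 in KO libraries, against 11439, 11218 and 10656 in WT libraries. With CM, Cyp2c50 was 15016, 15349 and 13265 in KO libraries, against 8947, 9504 and 10481 in WT libraries. KO libraries were higher in all 3 treatments, with a log2 fold change of 0.41 ± 0.09 with TNFa, 0.75 ± 0.09 with TGFb and 0.59 ± 0.09 with CM (adjusted p = 0.00392, 5.31e-07 and 3.96e-05). With TNFa, Cyp2c54 had a normalized value of 3286, 3965 and 3619 in KO libraries, against 2745, 2618 and 2823 in WT libraries. With TGFb, Cyp2c54 had 7517, 7279.7 and 6427 in KO libraries, against 4273, 4556 and 4209.9 in WT libraries. With CM, Cyp2c54 had 6511, 6327 and 6217 in KO libraries, against 4918, 4073 and 4608 in WT libraries. Its KO libraries too lay above WT throughout, with a log2 fold change of 0.41 ± 0.09 with TNFa, 0.70 ± 0.09 with TGFb and 0.49 ± 0.09 with CM (adjusted p = 0.00341, 1.04e-06 and 0.00034). With TNFa, Cyp2c37 had a normalized value of 5919, 5927 and 5853 in KO libraries, against 4903, 4675 and 5030.2 in WT libraries. With TGFb, Cyp2c37 read 13008, 10781 and 10829 in KO libraries, against 8129.7, 8384 and 7117 in WT libraries. With CM, Cyp2c37 read 9980.2, 10544 and 9601 in KO libraries, against 7258, 7477 and 7869 in WT libraries. The rise of Cyp2c37 was smaller, with a log2 fold change of 0.28 ± 0.08 with TNFa, 0.55 ± 0.08 with TGFb and 0.41 ± 0.08 with CM (adjusted p = 0.0394, 2e-05 and 0.00128). The TNFa call of Cyp2c37 was lost without any 1 of the 6 libraries, with adjusted p between 0.068 and 0.131 and a log2 fold change of 0.25 to 0.30.

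Cyp2c69 was the called member with the widest and steadiest fall. It is a female-biased gene close to Cyp2c40, whose product hydroxylates arachidonic acid. With TNFa, Cyp2c69 had a normalized value of 2401, 2218 and 2926 in KO libraries, against 5793, 6155 and 5858 in WT libraries. With TGFb, Cyp2c69 was 4119.7, 3844 and 3729 in KO libraries, against 7108, 7056 and 6571 in WT libraries. With CM, Cyp2c69 was 3469, 3870.3 and 3625 in KO libraries, against 6500.3, 6339.5 and 7196 in WT libraries. Every KO library lay below every WT library, whatever the treatment. Cyp2c69 had a log2 fold change of -1.25 ± 0.09 with TNFa, -0.83 ± 0.09 with TGFb and -0.87 ± 0.09 with CM (adjusted p = 7.02e-11, 9.32e-08 and 6.79e-08). With TNFa, Cyp2c40 had a normalized value of 3524, 3969.9 and 3211 in KO libraries, against 5524, 5039.7 and 5079 in WT libraries. With TGFb, Cyp2c40 was 6313, 6935 and 5951 in KO libraries, against 7449, 6967 and 7233 in WT libraries. With CM, Cyp2c40 was 6135, 6237 and 5861 in KO libraries, against 6823, 5779 and 6915 in WT libraries. The KO libraries of Cyp2c40 were below WT with TNFa and TGFb and overlapped WT with CM, and only the TNFa difference passed the test. The log2 fold change of Cyp2c40 was -0.55 ± 0.09 with TNFa, -0.18 ± 0.09 with TGFb and -0.09 ± 0.09 with CM (adjusted p = 0.000103, 0.24 and 0.617). The neighbours Cyp2c67 and Cyp2c68 did not follow Cyp2c69: Cyp2c67 rose with TGFb by 0.45 ± 0.14 (adjusted p = 0.029), and Cyp2c68 was called under no treatment (0.14 ± 0.11 with TGFb, adjusted p = 0.487). The Cyp2c67 call was lost in 5 of 6 subsets, at 0.38 to 0.45 (adjusted p = 0.0582 to 0.142), without 1 of TGFb KO replicate 1, TGFb KO replicate 2, TGFb KO replicate 3, TGFb WT replicate 2 or TGFb WT replicate 3, and with equal totals at 0.34 (adjusted p = 0.0919). Summed over these 4 genes, which share long stretches of sequence, the value was 9675 ± 226 in TNFa KO against 15079.8 ± 369.7 in TNFa WT. It was 16666 ± 876 in TGFb KO against 19701 ± 563 in TGFb WT, and 15362 ± 988 in CM KO against 18448 ± 1675 in CM WT (mean ± SD, n = 3).

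Cyp2c70 makes muricholic acids, bile acids known from rodents. With TNFa, Cyp2c70 had a normalized value of 9506, 10678 and 8533 in KO libraries, against 9089, 9972 and 10785 in WT libraries. With TGFb, Cyp2c70 was 12783, 15320.0 and 15379 in KO libraries, against 11371, 11197 and 11473 in WT libraries. With CM, Cyp2c70 was 16220.2, 15332 and 16554 in KO libraries, against 14601, 9309 and 11725 in WT libraries. Cyp2c70 was higher in KO with TGFb and CM and overlapped with TNFa. Cyp2c70 had a log2 fold change of -0.06 ± 0.11 with TNFa, 0.35 ± 0.11 with TGFb and 0.46 ± 0.11 with CM (adjusted p = 0.835, 0.0404 and 0.00764). Both calls depended on single libraries. With TGFb the value became 0.30 to 0.36 (adjusted p = 0.094 to 0.156), without 1 of TGFb KO replicate 2, TGFb KO replicate 3, TGFb WT replicate 1, TGFb WT replicate 2 or TGFb WT replicate 3, and with CM 0.29 without CM WT replicate 2 (adjusted p = 0.0933). With TGFb the adjusted p of Cyp2c70 was 0.115 without the filter on low values and 0.141 with equal totals, and with CM it was 0.1 in a fit of the 2 CM groups alone. Of the remaining Cyp2c genes, the epoxygenase Cyp2c23, Cyp2c39 and Cyp2c55 were called under no treatment, with log2 fold changes of 0.03 to 0.46, 0.79 to 1.06 and 1.15 to 1.40. Averaged over treatments, Cyp2c39 (0.96 ± 0.25, adjusted p = 0.00454) and Cyp2c55 (1.27 ± 0.32, adjusted p = 0.00415) were higher in KO, at means of 79.1 and 48.4 over the 18 libraries. Cyp2c65 was above 0 in 2 of 18 libraries and was not tested.

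Of 8 tested Cyp2d genes, the relatives of the human debrisoquine hydroxylase, Cyp2d9 alone rose under every treatment. Cyp2d9 is a testosterone 16-alpha-hydroxylase known as a male-biased gene. With TNFa, Cyp2d9 had a normalized value of 194, 221 and 229.5 in KO libraries, against 88.6, 15.2 and 47.6 in WT libraries. With TGFb, Cyp2d9 was 548, 371 and 236 in KO libraries, against 50.2, 60.9 and 82.3 in WT libraries. With CM, Cyp2d9 was 324, 278 and 286 in KO libraries, against 104, 67.4 and 56 in WT libraries. Its level was low in all libraries, and KO and WT did not overlap. The part of reads shared with Cyp2d10 in these values was not tested. The log2 fold change was 2.38 ± 0.42 with TNFa, 2.51 ± 0.42 with TGFb and 1.998 ± 0.42 with CM (adjusted p = 0.000314, 7.47e-05 and 0.00186). Cyp2d10 was the most abundant Cyp2d gene per length. With TNFa, Cyp2d10 had a normalized value of 8501, 7566 and 8969.8 in KO libraries, against 8342, 7438 and 8384 in WT libraries. With TGFb, Cyp2d10 had 12718, 11731 and 13589 in KO libraries, against 11272, 11057 and 12289 in WT libraries. With CM, Cyp2d10 had 9963, 10745 and 10696 in KO libraries, against 8162, 8032 and 8452 in WT libraries. Cyp2d10 overlapped between genotypes with TNFa and TGFb. It rose with CM by 0.35 ± 0.08 (adjusted p = 0.0058), and was not called with TNFa (0.05 ± 0.08, adjusted p = 0.805) or TGFb (0.13 ± 0.08, adjusted p = 0.354).

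With TGFb alone, Cyp2d22 rose by 0.80 ± 0.14 (adjusted p = 7.47e-05) and Cyp2d13 by 0.84 ± 0.24 (adjusted p = 0.0174). The Cyp2d13 call did not hold at 0.70 to 0.81 (adjusted p = 0.0657 to 0.105), without 1 of TGFb KO replicate 1, TGFb KO replicate 3 or TGFb WT replicate 1. Cyp2d26, Cyp2d40, Cyp2d11 and Cyp2d12 were called under no treatment, with log2 fold changes of -0.24 to 0.09 for Cyp2d26 and 0.08 to 0.55 for Cyp2d40. Cyp2d11 and Cyp2d12 had values of at most 21.3 and 20.3 in any library, and Cyp2d34 at most 9.29.

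Cyp2j5, an epoxygenase of liver and kidney, rose under each treatment. With TNFa, Cyp2j5 had a normalized value of 3239, 3793 and 3157 in KO libraries, against 2932, 2278 and 2794 in WT libraries. With TGFb, Cyp2j5 was 9187, 7950.3 and 8387 in KO libraries, against 5209, 4869 and 4916 in WT libraries. With CM, Cyp2j5 was 6842, 7358 and 6701 in KO libraries, against 5199.9, 4303 and 5212 in WT libraries. KO libraries were above WT without overlap. Cyp2j5 had a log2 fold change of 0.35 ± 0.10 with TNFa, 0.77 ± 0.10 with TGFb and 0.51 ± 0.10 with CM (adjusted p = 0.0241, 1.35e-06 and 0.000744). The TNFa call of Cyp2j5 did not hold at 0.27 without TNFa KO replicate 2 (adjusted p = 0.158) and 0.24 without TNFa WT replicate 2 (adjusted p = 0.182), without the filter on low values (adjusted p = 0.0534) or in a fit of the 2 TNFa groups alone (adjusted p = 0.115). Cyp2j6, Cyp2j9 and Cyp2j13 were called under no treatment. Cyp2j6 had log2 fold changes of -0.16 to 0.40 (adjusted p = 0.091 to 0.615). Cyp2j9 and Cyp2j13 had at most 47.9 and 29.6 in any library, and Cyp2j8 was above 0 in 4 of 18 libraries and was not tested.

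Cyp2e1 and Cyp2f2 are known as markers of opposite ends of the liver lobule, Cyp2e1 near the central vein and Cyp2f2 near the portal vein. With TNFa, Cyp2e1 had a normalized value of 68608, 69279.9 and 69509 in KO libraries, against 65960.5, 64442 and 63941 in WT libraries. With TGFb, Cyp2e1 was 149507, 150738 and 159280.0 in KO libraries, against 123246, 127408 and 117682 in WT libraries. With CM, Cyp2e1 was 113868, 111491 and 111136 in KO libraries, against 89468, 95059.8 and 93778 in WT libraries. The KO libraries lay above WT in each treatment. The log2 fold change of Cyp2e1 was 0.09 ± 0.09 with TNFa, 0.32 ± 0.09 with TGFb and 0.27 ± 0.09 with CM (adjusted p = 0.626, 0.0168 and 0.0528). Its TGFb call did not hold at 0.29 to 0.32 (adjusted p = 0.0566 to 0.0915), without 1 of TGFb KO replicate 3, TGFb WT replicate 1 or TGFb WT replicate 3. It was also lost with equal totals, at 0.21 (adjusted p = 0.0927), and in a fit of the 2 TGFb groups alone (adjusted p = 0.0553). The direction of that difference turned with quantile normalization, at -0.03 (adjusted p = 0.907). With TNFa, Cyp2f2 had a normalized value of 2135, 2143 and 2068 in KO libraries, against 1684, 1113 and 1492 in WT libraries. With TGFb, Cyp2f2 was 3528, 2743 and 3355 in KO libraries, against 1914, 2239 and 1965 in WT libraries. With CM, Cyp2f2 was 3229, 2975 and 2585 in KO libraries, against 2141, 2796 and 2176 in WT libraries. Cyp2f2 overlapped between genotypes with CM and was higher in KO otherwise. Cyp2f2 had a log2 fold change of 0.59 ± 0.13 with TNFa, 0.65 ± 0.13 with TGFb and 0.31 ± 0.13 with CM (adjusted p = 0.00346, 0.000632 and 0.145). Other genes of both zones rose in KO as well. Of 12 pericentral genes 6, 7 and 5 rose and none fell with TNFa, TGFb and CM. Of 13 periportal genes 8, 9 and 9 rose and 0, 2 and 1 fell. Of all tested genes, 4.19%, 7.25% and 5.62% were higher and 3.7%, 4.95% and 3.77% lower. The median log2 fold change was 0.52, 0.65 and 0.31 for the pericentral genes and 0.89, 1.29 and 1.03 for the periportal genes.

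The remaining single-gene subfamilies were called under no treatment in KO against WT. Cyp2r1, a vitamin D 25-hydroxylase, had 160.2 to 358 over the 18 libraries, with 169.8, 308 and 258 in TNFa KO against 201, 160.2 and 217 in TNFa WT. Its values were 267, 216 and 205 in TGFb KO against 232, 221 and 169 in TGFb WT, and 311, 358 and 251 in CM KO against 263, 243 and 315 in CM WT. The groups of Cyp2r1 overlapped throughout. Cyp2u1, a fatty acid hydroxylase, had 150.2, 126 and 157 in TNFa KO against 107, 244 and 86.9 in TNFa WT. It had 146, 126 and 206 in TGFb KO against 192, 97.1 and 129.8 in TGFb WT, and 154, 156 and 140.3 in CM KO against 154, 103 and 175 in CM WT. These groups overlapped as well, with log2 fold changes of 0.09 to 0.21. Cyp2g1, best known from the nasal mucosa, had 30.1, 6.53 and 0 in TNFa KO against 25, 0 and 13.8 in TNFa WT. With TGFb it had 62.2, 55.5 and 89.7 in KO against 75.5, 28.6 and 28.7 in WT libraries, and with CM 47.5, 45.9 and 93.3 in KO against 9.71, 39 and 13.2 in WT libraries. With CM the KO libraries of Cyp2g1 were the higher ones, without passing the test (1.71 ± 1.01, adjusted p = 0.353). Cyp2s1, chiefly a gene of epithelia outside the liver, was at 0 in 10 of 18 libraries and reached 26 in 1 TGFb KO library. Cyp2t4 was above 0 in 2 libraries, at 10.2 in 1 TNFa KO library and 2.49 in 1 TGFb WT library.

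The size of the KO effect differed between treatments for 3 members by limma's F-test over the 3 effects, which called 1.7% of all tested genes and 7.69% of the members. These were Cyp2a12 (adjusted p = 0.00624), Cyp2b10 (adjusted p = 0.0164) and Cyp2a5 (adjusted p = 0.0411). For Cyp2a12 the KO effect with TNFa was lower than with TGFb at -0.68 ± 0.13 (adjusted p = 0.0057) on the log2 scale, and the effect with CM was higher than with TNFa by 0.57 ± 0.13 (adjusted p = 0.0322). For Cyp2b10 the effect with CM exceeded that with TNFa by 0.62 ± 0.12 (adjusted p = 0.0134). For Cyp2a5 the same difference was 0.52 ± 0.12 (adjusted p = 0.0407). All 3 thus had their smallest KO effect with TNFa. The number of members called by this test was 1 to 5 when 1 library was left out, being 1 without TNFa KO replicate 1, TNFa WT replicate 1 or TNFa WT replicate 3 and 5 without CM WT replicate 3, and 0 in limma without a trend.

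Treatments were compared within a genotype. These comparisons share libraries with each other and with the KO comparisons, so each is given for itself. Many Cyp2 genes had less RNA with TNFa than with TGFb or CM. In KO hepatocytes, 26 of 39 members rose with CM relative to TNFa and 1 fell, against 8.38% higher and 4.32% lower of all genes, and 0 rose and 27 fell with TNFa relative to TGFb, against 10.1% higher and 12.3% lower. In WT hepatocytes, 16 rose and 1 fell with CM relative to TNFa, against 6.81% higher and 5.46% lower of all genes, and 1 rose and 22 fell with TNFa relative to TGFb, against 5.33% higher and 8.06% lower. The median log2 fold change of the members was 0.73 in KO and 0.55 in WT for CM over TNFa, and -0.94 in KO and -0.62 in WT for TNFa over TGFb. CM and TGFb differed less. With CM relative to TGFb, 0 members rose and 7 fell in KO, against 5.2% higher and 5.39% lower of all genes, and 0 rose and 6 fell in WT, against 5.76% higher and 6.09% lower. The 7 in KO were Cyp2a12, Cyp2b13, Cyp2c29, Cyp2c50, Cyp2d10, Cyp2d22 and Cyp2e1, and the 6 in WT were Cyp2a5, Cyp2a12, Cyp2b10, Cyp2c29, Cyp2d10 and Cyp2e1. The count of 7 was 4 with equal totals, 3 with quantile normalization and 2 in limma without a trend. It was 2 without TGFb KO replicate 1, 4 without TGFb KO replicate 3 and 3 without CM KO replicate 3. Hepatocyte markers moved in the same way: with CM relative to TNFa all 11 tested rose in KO and 7 rose in WT, and with TNFa relative to TGFb 10 fell in KO and 7 in WT. The part of a general change of hepatocyte RNA in the Cyp2 differences was not tested.

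**Figure D4:**
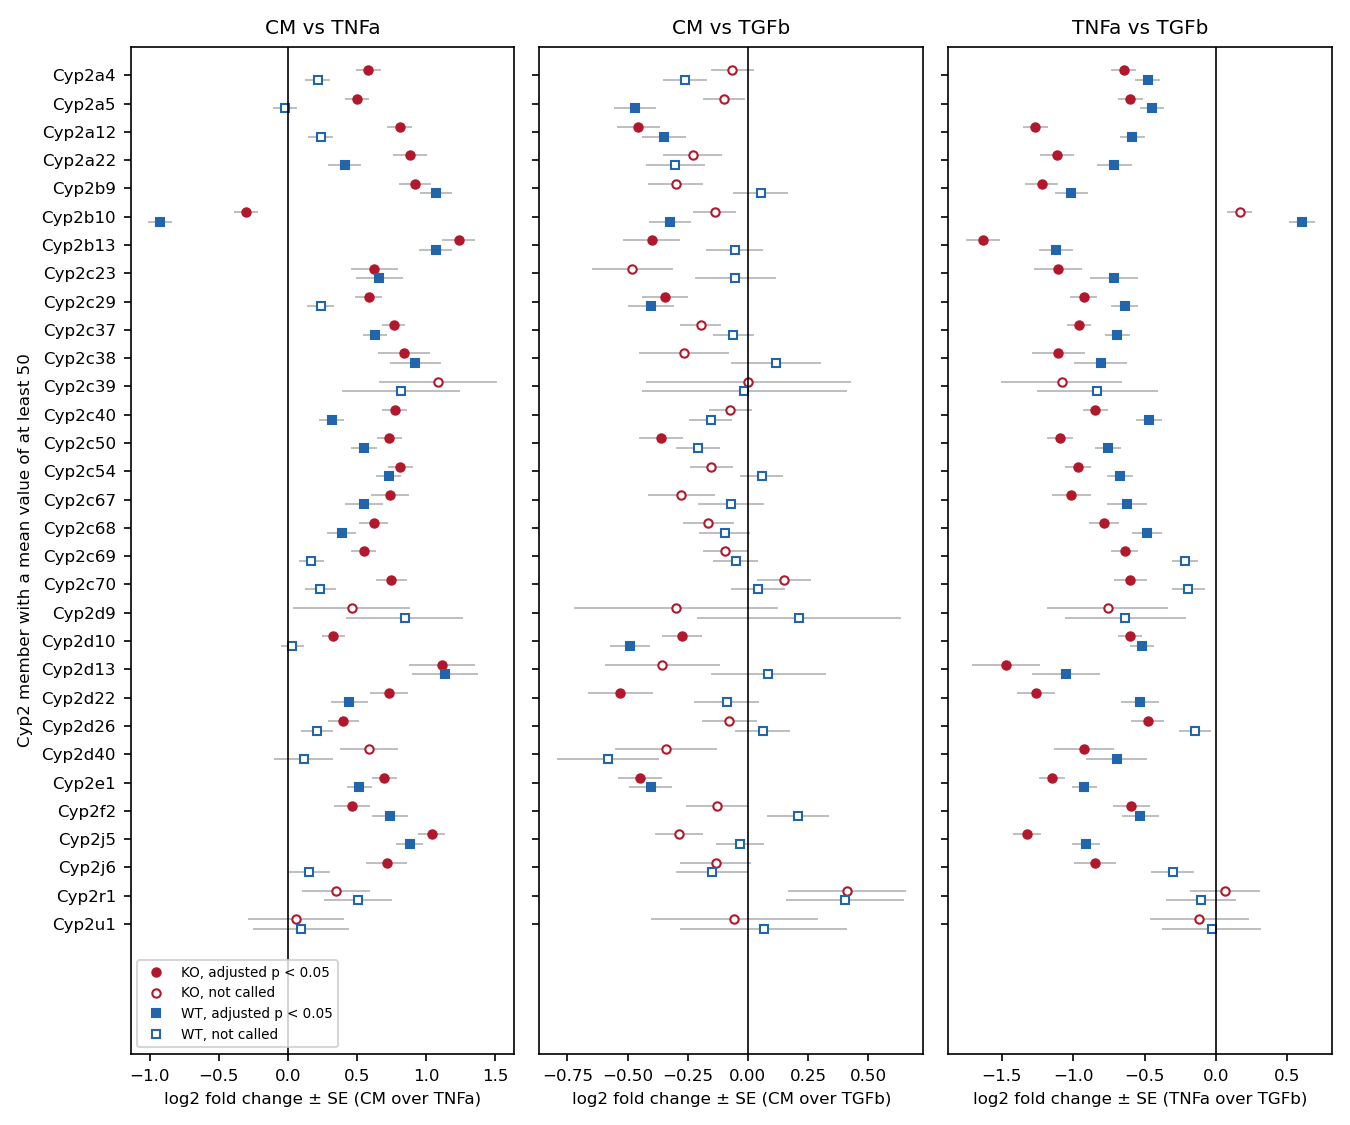
Log2 fold change with its standard error (x axis) between treatments for the 31 tested members with a mean value of at least 50 (y axis), with 1 panel for each pair of treatments; circles are KO, squares WT, filled where the adjusted p is below 0.05. Nearly all members lie right of 0 for CM over TNFa and left of 0 for TNFa over TGFb, with Cyp2b10 on the other side in both panels.

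The most abundant member, Cyp2e1, had with TNFa a log2 fold change over TGFb of -1.15 ± 0.09 (adjusted p = 5.15e-11) in KO and -0.92 ± 0.09 (adjusted p = 9.7e-09) in WT. For Cyp2j5 it was -1.33 ± 0.10 (adjusted p = 1.99e-11) in KO and -0.91 ± 0.10 (adjusted p = 6.24e-08) in WT, and for Cyp2b13 -1.63 ± 0.12 (adjusted p = 1.17e-11) in KO and -1.12 ± 0.12 (adjusted p = 3.83e-08) in WT. Cyp2c29 had -0.93 ± 0.10 (adjusted p = 7.67e-09) in KO and -0.64 ± 0.10 (adjusted p = 1.15e-05) in WT. For CM over TNFa, Cyp2b13 stood at 1.24 ± 0.12 (adjusted p = 1.09e-08) in KO and 1.07 ± 0.12 (adjusted p = 1.56e-07) in WT, and Cyp2b9 at 0.92 ± 0.12 (adjusted p = 7.3e-07) in KO and 1.07 ± 0.12 (adjusted p = 9.13e-08) in WT. Cyp2d13 had 1.12 ± 0.24 (adjusted p = 0.00122) in KO and 1.14 ± 0.24 (adjusted p = 0.00126) in WT. Cyp2g1 rose in KO by 3.28 ± 1.01 (adjusted p = 0.0275) and had 1.33 ± 1.01 (adjusted p = 0.465) in WT, a difference between genotypes that was not called. With 0 to 93.3 over the libraries it is scarce, and its KO call did not hold without TNFa KO replicate 3, at 1.97 (adjusted p = 0.237), without any 1 CM KO library, at 2.95 to 3.46 (adjusted p = 0.0553 to 0.11), without the filter on low values (adjusted p = 0.0997), in a fit of the 2 groups alone (adjusted p = 0.0835) or without a trend (adjusted p = 0.116). The exception was Cyp2b10, whose level with CM was lower than with TNFa, at -0.30 ± 0.09 (adjusted p = 0.0185) in KO and -0.93 ± 0.09 (adjusted p = 1.3e-08) in WT. The KO call of Cyp2b10 did not hold at -0.30 to -0.26 (adjusted p = 0.0514 to 0.0962), without 1 of TNFa KO replicate 2, TNFa KO replicate 3, CM KO replicate 2 or CM KO replicate 3, or without a trend (adjusted p = 0.0517). With TNFa relative to TGFb, Cyp2b10 rose in WT by 0.60 ± 0.09 (adjusted p = 7.28e-06), and was not called in KO (0.17 ± 0.09, adjusted p = 0.196). The CAR-target Cyp2b10 was thus the only called member higher with TNFa than with TGFb in WT.

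Members known to be sex-biased in mouse liver did not move as 1 group. Of the 8 female-biased members (Cyp2a4, Cyp2b9, Cyp2b13, Cyp2c38, Cyp2c39, Cyp2c40, Cyp2c69 and Cyp2g1), 3 rose and 3 fell in KO with TNFa, 3 rose and 2 fell with TGFb, and 3 rose and 1 fell with CM. Cyp2b9, Cyp2b13 and Cyp2c38 were the 3 that rose each time. The 8 genes summed to 16452 to 17341 in TNFa KO against 21212 to 21951 in TNFa WT, 31561 to 33388 in TGFb KO against 29879 to 30701 in TGFb WT, and 27890.1 to 29563 in CM KO against 25861 to 29533 in CM WT. The male-biased Cyp2d9 rose each time. Outside family 2, 17 female-biased genes split likewise, with 7 higher and 6 lower with TNFa, 7 and 5 with TGFb, and 5 and 5 with CM. Among them Cyp3a44 fell with TNFa (-1.78 ± 0.10, adjusted p = 9.1e-13). Of 11 tested male-biased genes outside the family none rose and 3, 1 and 1 fell. Among all tested genes, 4.19%, 7.25% and 5.62% rose in KO with TNFa, TGFb and CM, and 3.7%, 4.95% and 3.77% fell. Of 4 Y-linked genes, Ddx3y and Eif2s3y had at most 4.88 and 8.84 in any library, while Kdm5d had 30.9 to 114 and Uty 14.2 to 126. Sex is not among the labels used here.

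Genes that serve P450 enzymes rose in part. Of 18 partners and heme genes, 2, 4 and 5 rose in KO with TNFa, TGFb and CM, and 0 fell. Cytochrome b5 (Cyb5a), an electron donor of P450 enzymes, rose each time, at 0.41 ± 0.10, adjusted p = 0.00627 with TNFa, 0.71 ± 0.10, adjusted p = 3.25e-06 with TGFb and 0.79 ± 0.10, adjusted p = 1.06e-06 with CM. Alad, an enzyme of heme synthesis, rose with TGFb (0.79 ± 0.14, adjusted p = 0.000211) and CM (0.85 ± 0.14, adjusted p = 0.000137). Hmox1, which breaks heme down and is abundant in macrophages, rose with TNFa (0.37 ± 0.08, adjusted p = 0.00257) and CM (0.71 ± 0.08, adjusted p = 2.3e-07). With TGFb, Hmox1 was 42826, 41753 and 44132 in KO libraries and 40100, 41227 and 43072 in WT libraries, which overlapped. The part of Kupffer cells in the Hmox1 values was not tested. Of 25 regulators of P450 genes, 1 rose and 1 fell with TNFa, 6 rose and 2 fell with TGFb, and 1 rose and 1 fell with CM. Of all tested genes, 4.19%, 7.25% and 5.62% were higher in KO with TNFa, TGFb and CM, and 3.7%, 4.95% and 3.77% lower. Averaged over treatments, 9 of the 25 regulators rose and 5 fell. Their median log2 fold change was then -0.0066, against -0.0033 for all genes. With TGFb, the bile acid receptor Nr1h4 (0.96 ± 0.23, adjusted p = 0.00397), the coactivator Ppargc1a (1.10 ± 0.26, adjusted p = 0.00413) and CAR (Nr1i3, 1.11 ± 0.29, adjusted p = 0.0106) rose. Nr1i3 was not called with TNFa (0.58 ± 0.29, adjusted p = 0.268) or CM (0.47 ± 0.29, adjusted p = 0.387). Of 7 growth hormone axis genes 0, 1 and 0 rose and 1, 1 and 0 fell.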

How the data were processed

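RNA-seq of mouse hepatocytes was analysed from 1 deposited table of 16873 genes and 18 libraries. Its values are a signal per gene that the authors normalized with DESeq2, per the submitters' processing notes, which also name Partek, STAR 2.7.8a and the mm39 build. The sources used here do not give read length, strand or the counting of multi-mapping reads. Libraries were rRNA-depleted, per the labels' protocols. A step was defined as the most frequent low positive value of a library. The values are not whole reads, so no count test was run. Of the low positive values of a library, 67.9% to 74.1% lie within 0.01 of a whole number of steps. Depth was estimated by taking 1 step as 1 read.

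A gene was tested with limma 3.58.1 in R 4.3.3 on log2(value + 1) when it had at least 10 in at least 3 libraries, which 14455 genes did. The fit held 6 group means and a mean-variance trend (residual df 12, prior df 17). Fold changes are differences between group means on that log2 scale. For low genes they can lie above or below what the ratio of group means gives. For Cyp2b23 with TGFb, the log2 fold change of 3.51 stood for more than its ratio of means, 7.56. The same held for Cyp2d9 with TNFa, at 2.38 and a ratio of 4.26. The adjusted p is Benjamini-Hochberg over all tested genes, with a threshold of 0.05. No value was dropped or imputed. The same script was tested on simulated data.

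Every member could be named. Values per library are given for members called in at least 2 of the 3 KO comparisons or by the test of unequal KO effects, and for the top member of each subfamily. Other genes come from lists, at most 3 per list. Cyp2c40, Cyp2b23 and the sums of close copies were added to the text after their values were seen. The members and lists were chosen with earlier results of these data known. Replicate numbers did not pair the libraries. Sequences come from GENCODE M21 and RefSeq (GRCm38.p6), compared with Biopython 1.88 in Python 3.11.15, and figures were drawn with matplotlib 3.10.9 from tables made with pandas 2.3.3 and NumPy 2.4.6.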

Additional observations from a re-analysis of the deposited data

Results flagged for a closer look

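Cyp2a12, Cyp2b10 and Cyp2a5 had KO effects of unequal size between treatments by limma's F-test over the 3 KO effects, in which each passed an adjusted p of 0.05. For Cyp2a12 the KO effect with TNFa minus that with TGFb was -0.68 on the log2 scale. For Cyp2b10 the KO effect with CM minus that with TNFa was 0.62. For Cyp2a5 the same difference was 0.52. In limma without a trend none of these tests passed the threshold. The cause was not tested.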

How the results depend on the processing

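The direction of the called KO effects and treatment effects of single members was kept under each setting run but 1, Cyp2e1 in KO against WT with TGFb, which came to -0.0274 (adjusted p = 0.907) with quantile normalization. Calls that kept their direction but no longer passed were 26 of 186 without a trend and 14 of 186 with equal totals. They were 11 of 186 without the filter on low values and 7 of 186 with quantile normalization. On the compared groups alone 14 of 160 were lost, and with 1 library left out 94 of 1428. Called members for CM relative to TNFa in WT were 17, and 12 to 18 with 1 library left out. The number of called members for CM relative to TGFb in KO was 7, and it was 4 with equal totals, 3 with quantile normalization, 2 in limma without a trend and 2 to 9 when 1 library was left out. The number of members with unequal KO effects was 3, and it was 0 without a trend and 1 to 5 when 1 library was left out. Without the most abundant member, the KO over WT ratio with TNFa was 0.863 for Cyp2a, 0.967 for Cyp2c, 0.96 for Cyp2d and 0.903 for Cyp2j. With 1 library left out, called members numbered 12 to 15 in KO against WT with TNFa, 17 to 21 with TGFb and 16 to 18 with CM. Equal totals moved the median of all genes by over 0.1 in 4 comparisons, to -0.12 in KO against WT with TGFb, -0.17 in CM against TNFa in KO, and 0.29 in KO and 0.11 in WT for TNFa against TGFb. Same-numbered libraries had deviations that correlated at -0.068 to 0.054 over 45 pairs. With the replicate number as a block, 14 members were called with TNFa, 21 with TGFb and 16 with CM in KO against WT, and 2 for unequal KO effects; Cyp2c37 with TNFa (adjusted p = 0.0519) and Cyp2c70 with TGFb (adjusted p = 0.0553) were the single calls that it ended. Depth limits the scarce members, such as Cyp2g1, Cyp2s1, Cyp2d11, Cyp2d12, Cyp2j9 and Cyp2j13. The average over treatments and the unequal KO effects need all groups and were not run on the compared groups alone.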
